A study of Mus musculus with 168 samples.

Results

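The Janus kinase genes Jak1, Jak2, Jak3 and Tyk2, the family the inhibitors of this series are directed at, were followed across 6 populations of sorted mouse immune cells. Which of these kinases each compound blocks is not given in the labels. Members were found by gene symbol in the annotation of the array's probe sets. Of 4 genes, 3 (Jak1, Jak2 and Tyk2) had 1 probe set of their own among 19752 genes measured. Jak3 had none: the 1 probe set that lists it also lists the neighbouring gene Insl3, so its values are given as those of the probe set shared by Jak3 and Insl3 and are not read as Jak3.

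Male C57BL/6 mice aged 6 weeks were gavaged with 1 of 5 inhibitors or with vehicle, and RNA of cells sorted from spleen or peritoneal cavity was hybridised to Affymetrix Mouse Gene 1.0 ST arrays. The 168 arrays came from 80 animals in 7 experiments, named J2, J3, J6, J8, J12, J23 and J25 in the titles. Compounds are known by code only. Most arrays were of SB00526222 (43) and SB00526221 (32), fewer of SB00513404 (20) and SB00526226 (18), and 9 of SB00526228. The labels give no dose.

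No group carried a transgene or a deletion. Plain vehicle was 0.5% MC (39 arrays), and MC at pH 3 was a second vehicle (7 arrays). Sorts from spleen were GN (Ly6G+, 16 arrays), T4 (CD4+ T cells, 39 arrays), NK (NK1.1+, 27 arrays), MF (F4/80+, 33 arrays) and DC (FLT3+, 20 arrays). Peritoneal MF (33 arrays) were F4/80+, and in J23 and J25 also ICAM2+. The prolonged spleen schedule held 14, 15 or 28 treatments with harvest 14 to 18 h after the last one. The 4 h schedule was harvested 4 h after the last of 3 treatments, in J2 only and without a vehicle of its own, so hour and number of treatments cannot be told apart from inhibitor there. Peritoneal schedules were early (1.5 to 6 h after 1 treatment), late (18 to 28 h after 1 treatment) and repeated (18 h after the last of 14). Late and repeated inhibitors shared 1 control, made of 1 late and 2 repeated plain vehicle arrays. Late inhibitors, given 1 treatment, were thus compared mostly with vehicle of 14 treatments. J25 added T4 arrays harvested 3 h and 18 h after 1 treatment.

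Janus kinases are tyrosine kinases bound in pairs to the tails of cytokine receptors. When a cytokine draws the receptor chains together, the kinases phosphorylate each other and the receptor, and STAT transcription factors dock, become phosphorylated and enter the nucleus. JAK1 serves interferon, IL-6 family and common gamma chain receptors. JAK2 serves the receptors of erythropoietin, thrombopoietin, GM-CSF and IFN-gamma, TYK2 those of type I interferon, IL-12 and IL-10, and JAK3 only receptors with the common gamma chain, which lymphocytes depend on. Inhibitors of these kinases block the enzyme, and an array measures its transcript, not its activity.

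The start regions of the 3 measured genes are shown to place them in the genome, and because Jak2 stands out in its CG content. Each is the 250 bases before the start of the gene, 5′ to 3′ on the gene's own strand, from RefSeq in build GRCm38.p6, with each CG dinucleotide in capitals. They lie at chr4:101265224-101265473 (Jak1, minus strand), chr19:29251553-29251802 (Jak2, plus strand) and chr9:21131276-21131525 (Tyk2, minus strand).
Jak1: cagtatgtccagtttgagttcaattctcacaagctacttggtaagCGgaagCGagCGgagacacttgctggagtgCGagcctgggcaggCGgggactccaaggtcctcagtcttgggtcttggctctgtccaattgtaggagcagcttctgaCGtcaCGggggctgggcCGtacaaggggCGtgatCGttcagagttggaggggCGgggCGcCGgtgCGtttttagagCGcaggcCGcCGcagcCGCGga
Jak2: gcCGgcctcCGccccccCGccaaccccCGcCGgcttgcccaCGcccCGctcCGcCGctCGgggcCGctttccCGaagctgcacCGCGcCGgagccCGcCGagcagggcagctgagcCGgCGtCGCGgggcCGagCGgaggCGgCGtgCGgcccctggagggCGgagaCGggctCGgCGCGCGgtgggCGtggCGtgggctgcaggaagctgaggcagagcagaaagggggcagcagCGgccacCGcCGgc
Tyk2: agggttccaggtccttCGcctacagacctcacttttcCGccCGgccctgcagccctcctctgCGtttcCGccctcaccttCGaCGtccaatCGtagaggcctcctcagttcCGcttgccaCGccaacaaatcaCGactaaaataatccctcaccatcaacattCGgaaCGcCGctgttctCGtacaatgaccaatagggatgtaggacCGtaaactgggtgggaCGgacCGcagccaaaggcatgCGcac
The Jak2 region was 80.8% G and C with 37 CG, and 99% of the 32851 promoters in the table had a lower share. Jak1 (61.2%, 19 CG) and Tyk2 (57.2%, 19 CG) also stood above the median promoter, which was 52.4% G and C with 6 CG, and Jak3 (52.4%, 8 CG) stood at it. The STAT-type motif TTCNNNGAA, which reads the same on both strands, had 0 matches in each of the 4 regions, and 7.02% of all promoters of that length held it.

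All levels are log2 of the deposited intensity, and all differences are on that log2 scale. A level is compared only within a probe set, never between genes. In sorted bulk samples, fewer cells of a type and less RNA per cell cannot be told apart. The sorts were checked against marker lists. In vehicle arrays the mean of 5 NK markers was 12.05 to 12.38 in NK and at most 6.95 elsewhere, that of 5 CD4 T markers was 11.98 to 12.39 in T4 and at most 8.81 elsewhere, and granulocyte and dendritic cell lists were likewise highest in GN and DC. Single NK and CD4 T markers follow, over all arrays and chosen after their values were seen. In T4, Klrb1c of the NK list ran from 4.89 over a mean of 7.12 to 10.59. Eomes averaged 7.44 there, and Ncr1, Klra8 and Gzma between 4.97 and 5.13. In NK, Cd28, Cd3g and Cd3e of the CD4 T list averaged 10.03, 9.71 and 9.14, below 11.69, 12.92 and 12.56 in T4. Cd5 and Cd4 averaged 7.39 and 6.61 in NK. The part of other cells in these values was not tested. The label spleen MF went against its markers. The peritoneal macrophage list (6 genes) had a median of 11.56 in spleen MF and 11.48 in peritoneal MF, with Gata6 at 11.14 ± 0.27 (SD, n = 33) and 11.17 ± 0.23 (n = 33). Of 5 genes of red pulp macrophages, Vcam1, Spic and Slc40a1 were low in the arrays labelled spleen MF (5.99, 5.15 and 5.51), while Hmox1 was at 10.39 and Cd163 at 7.64, its highest of the 6 populations. Peritoneal MF had 6.06, 5.10, 5.66, 10.63 and 7.41 for the same 5 genes. The name spleen MF is used below only as the label.

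Of the 168 arrays, 20 stood apart, with a mean correlation to their population more than 3 median absolute deviations below its median. The members were low in them: Jak1 lay below the median of the other arrays of its population in 18 of 20, Tyk2 in 17 and Jak2 in 14, against 72 of 148 other arrays for each. The median deviation was -0.47 for Jak1, -0.59 for Tyk2 and -0.29 for Jak2. In each of the 6 populations, the array with the lowest Jak1 was among them. Of the 20, 7 were plain vehicle. Steps between populations and pooled inhibitor differences are therefore given with and without the 20. Leaving them out removes every plain vehicle array of J8 in T4 and of J2 in spleen MF. It also removes the only early vehicle array of J23 in peritoneal MF. The control there then comes from other arrays.

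Jak1, the kinase shared by most of these receptors, was highest in NK. Its levels in the 3 NK vehicle arrays were 12.49, 12.68 and 12.94. T4 followed with 11.59, 12.09 and 12.44 (lowest, median, highest, n = 8), and GN with 11.98, 11.62, 11.85, 11.60 and 11.90. Every NK array lay above every T4 and GN array, and T4 and GN overlapped. The macrophage and dendritic arrays formed a lower tier: spleen MF ran from 10.72 over 10.95 to 11.16 (n = 8), peritoneal MF from 10.66 over 10.92 to 11.07 (n = 9) and DC from 10.32 over 10.82 to 11.00 (n = 6). No array of that tier reached the lowest lymphocyte or granulocyte array. The means ± SD were 12.71 ± 0.23 in NK, 12.05 ± 0.28 in T4, 11.79 ± 0.17 in GN, 10.93 ± 0.15 in spleen MF, 10.91 ± 0.14 in peritoneal MF and 10.76 ± 0.24 in DC.

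Down this order, Jak1 in NK exceeded T4 by 0.64 (adjusted p = 0.000396, limma with Benjamini-Hochberg over 12614 genes), and GN exceeded spleen MF by 0.82 (adjusted p = 3.9e-08). T4 exceeded GN by 0.27 (adjusted p = 0.0323), a call that quantile normalization took to 0.00, and which was lost with the experiment as a fixed effect, with pH 3 arrays added, in J2, J3, J6 and J8 alone and without any 1 of 5 single arrays. Spleen MF, peritoneal MF and DC did not differ beyond their spread (adjusted p = 0.98 and 0.266 between neighbours). DC minus spleen MF was -0.20 (adjusted p = 0.125), which passed with array weights and with the experiment as a fixed effect. Without the arrays that stand apart the called steps were 0.51 (NK over T4), 0.86 (GN over spleen MF) and 0.35 (T4 over GN), and all passed. The widest gap, NK over DC, was 3.81-fold.

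Jak2, which carries signals of haematopoietic growth factors and IL-12, had another order, with DC at its top. The 6 DC vehicle arrays ran from 11.09 over 11.29 to 11.61. GN had 10.34, 9.92, 9.84, 9.67 and 10.05, NK had 9.99, 10.11 and 9.55, and T4 ran from 9.07 over 9.77 to 10.26 (n = 8). The lowest DC array lay above the highest array of every other population, and GN, NK and T4 overlapped each other. Both macrophage populations were low, spleen MF at 8.75, 8.98 and 9.18 (lowest, median, highest) and peritoneal MF at a median of 8.92 and a highest of 9.26. Their arrays overlapped T4 only through its lowest array, an array of J8 that stands apart.

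The mean of Jak2 was 11.29 ± 0.19 in DC, 9.96 ± 0.25 in GN, 9.88 ± 0.30 in NK, 9.80 ± 0.43 in T4, 8.96 ± 0.13 in spleen MF and 8.92 ± 0.18 in peritoneal MF. DC exceeded GN by 1.33 (adjusted p = 2.52e-10) and T4 exceeded spleen MF by 0.82 (adjusted p = 3.29e-07). GN, NK and T4 did not differ beyond their spread (adjusted p = 0.737 and 0.798 between neighbours), though with array weights T4 lay below GN by 0.34 and below NK by 0.38 (adjusted p = 0.00924 and 0.00875). Nor did both macrophage populations differ (0.993). Without the arrays that stand apart, DC over GN was 1.28 and T4 over spleen MF 0.85, and both passed. DC over peritoneal MF was the widest gap of the 3 members, at 5.03-fold. With the experiment as a fixed effect, 2 calls of Jak2 were lost, peritoneal MF below GN (-0.46, adjusted p = 0.0885) and below NK (-0.31, adjusted p = 0.389).

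Tyk2, the partner kinase of type I interferon and IL-12 receptors, was highest in NK and lowest in GN, with the other populations between. NK had 9.69, 10.08 and 10.65, and GN had 8.07, 7.94, 8.60, 7.74 and 8.51. In between lay DC (8.90, 9.51 and 9.85, lowest, median, highest), T4 (9.02, 9.17 and 9.82), spleen MF (8.42, 9.34 and 9.43) and peritoneal MF (median 9.34, highest 9.48). The 4 middle populations overlapped throughout. NK lay wholly above both macrophage populations but not above DC or T4, and GN lay wholly below DC, T4 and peritoneal MF.

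Tyk2 averaged 10.14 ± 0.48 in NK, 9.42 ± 0.42 in DC, 9.34 ± 0.32 in T4, 9.24 ± 0.28 in peritoneal MF, 9.23 ± 0.34 in spleen MF and 8.17 ± 0.37 in GN. The steps that passed the test were NK over DC (0.75, adjusted p = 0.00599) and spleen MF over GN (1.10, adjusted p = 9.66e-07), while neighbours from DC to spleen MF did not differ beyond their spread (adjusted p from 0.659 to 0.994). Without the highest of the 3 NK arrays, NK over DC fell to 0.56 (adjusted p = 0.0937) and NK over T4 to 0.65 (adjusted p = 0.0621). With arrays that stand apart left out, NK over DC was 0.51 (adjusted p = 0.013) and spleen MF over GN 1.07, and both passed. NK over GN was 4.09-fold.

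The probe set shared by Jak3 and Insl3 was highest in T4 (9.83 ± 0.34, n = 8) and NK (9.22 ± 0.44, n = 3). DC followed at 8.78 ± 0.26 and GN at 8.35 ± 0.37, and both macrophage populations were lowest, at 8.10 ± 0.19 and 8.08 ± 0.15. Which gene it reads in a population was not tested.

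**Figure D1:**
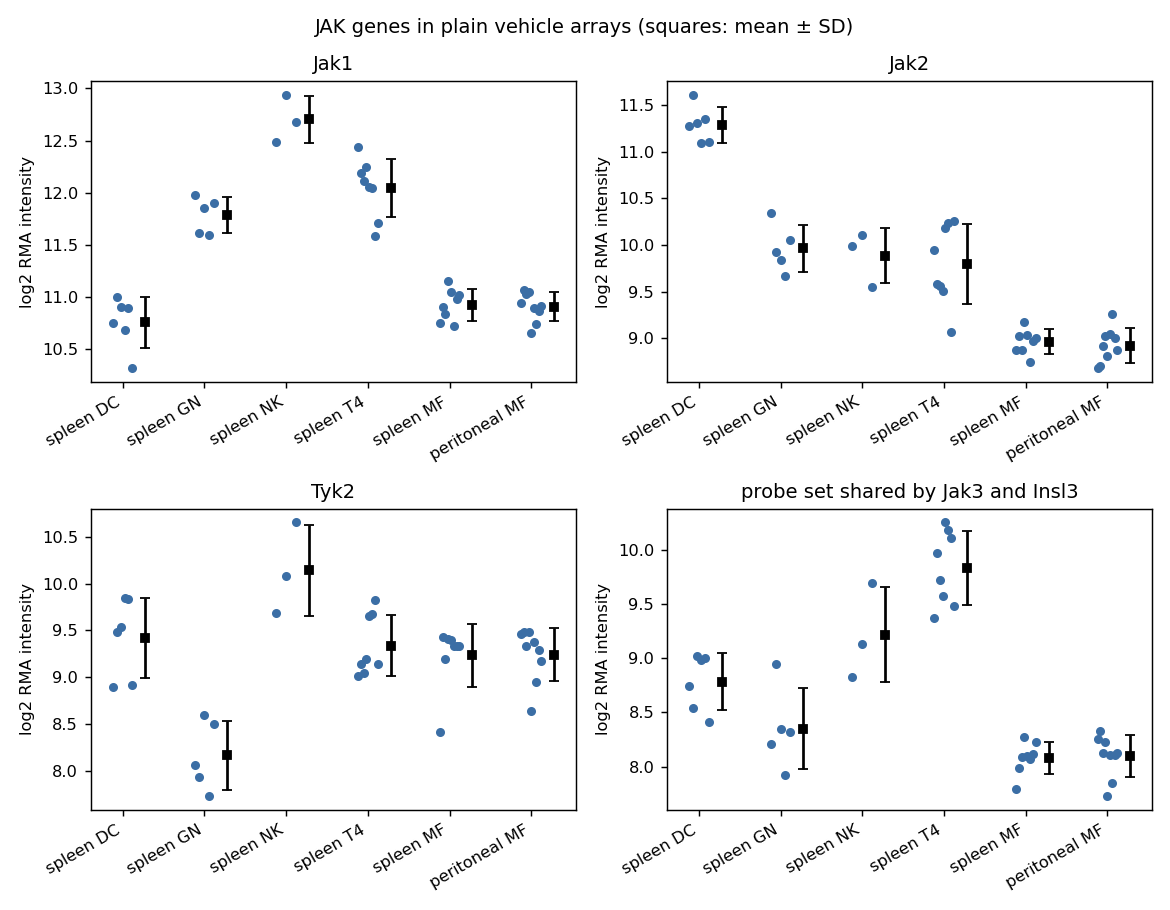
Levels of Jak1, Jak2, Tyk2 and the probe set shared by Jak3 and Insl3 in plain vehicle arrays. Each panel has its own log2 intensity axis, each dot is 1 array, and squares with bars are mean ± SD. Jak1 and Tyk2 peak in NK (12.71 and 10.14), Jak2 in DC (11.29) and the shared probe set in T4 (9.83).

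Over the 15 pairs of populations, Jak1 passed the test in 12, Jak2 in 11 and Tyk2 in 9. Such differences are common here: a gene passed in 7.85 of the 15 pairs on average. The moderated F test over populations called all 3 members (adjusted p = 2.61e-18, 2.74e-18 and 5.01e-09), and it called 94.2% of the 12614 genes. Pairs of GN called 77.3% of genes against peritoneal MF, 78.2% against spleen MF, 72.1% against DC, 65.7% against NK and 75.2% against T4. Pairs of DC called 50.9% against peritoneal MF, 50.7% against spleen MF, 35.8% against NK and 48.6% against T4. NK differed in 46.8% from peritoneal MF and in 45.2% from spleen MF, and T4 in 58.5% and 58.1%. NK and T4 differed in 21.2%, and both macrophage populations in 0.523%; in that pair no member passed. Passing in a pair thus says little of a gene here, and what is described is the members' order.

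The 3 members with a probe set of their own did not follow each other closely. Over the 39 vehicle arrays, which share animals and populations, Pearson's r was 0.11 between Jak1 and Jak2, 0.13 between Jak1 and Tyk2 and 0.04 between Jak2 and Tyk2. With population means removed, r was 0.33, 0.28 and -0.04. The probe set shared by Jak3 and Insl3 had r = 0.65 with Jak1, 0.38 with Jak2 and 0.4 with Tyk2. With population means removed these were 0.14, -0.13 and 0.68. The means spanned 1.94 for Jak1, 2.36 for Jak2 and 1.97 for Tyk2, and the SD within populations was 0.20, 0.26 and 0.35, so Tyk2 was the member whose arrays of 1 population scattered most.

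Other genes followed them more closely. Of 12613 genes, Jak1 was most like Arhgef18 (r = 0.957), A430078G23Rik (0.95) and Cracr2a (0.943). Arhgef18 ran from 10.17 in NK and 9.89 in T4 down to 8.03 in DC. Jak2 was most like Cdc14a (0.95), Tmem123 (0.94) and Cd274 (0.937), the gene of the checkpoint ligand PD-L1. Cd274 was at 10.56 in DC, 9.38 in GN and 7.70 in peritoneal MF. Tyk2 was most like Zc3h7b (0.897), Ankrd50 (0.89) and Gbf1 (0.89), all at their lowest in GN. These are descriptions over 39 arrays of 6 populations and carry no test.

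Chains of the receptors that each kinase serves were set beside the kinases, and are called its chains here whether or not they bind it. All 13 chains of JAK1 tested (14 listed), all 9 of JAK2 tested (15 listed), all 4 of TYK2 and all 6 STATs measured of 7 passed the F test, against 94.2% of all genes, as did 23 of 25 brakes and adaptors. Il2rg, the chain of JAK3, had no probe set of its own. The chains with the lowest adjusted p in each list are named, and Il2rb, Il6st, Il12rb2 and Ifnar1 were added after their values were seen. Among JAK1 chains, Il2rb, the IL-2 and IL-15 receptor beta chain, was at 12.43 ± 0.36 in NK and 10.92 ± 1.00 in T4, and between 5.41 and 6.46 in the other populations. Il7r, the IL-7 receptor, was at 12.09 ± 0.41 in T4, 10.54 ± 0.49 in NK and 5.17 in peritoneal MF. Both had their 2 highest populations in common with Jak1. Il21r, the IL-21 receptor, was highest in T4 (10.14 ± 0.23) and DC (9.61) and at 7.89 in NK. Lifr, the receptor of leukaemia inhibitory factor, ran the other way, from 9.41 in spleen MF and 9.15 in peritoneal MF to 5.82 in NK and 5.62 in T4. Il6st, the gp130 chain of IL-6 type receptors, was highest in DC (11.45) and lowest in GN (6.32), unlike Jak1.

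Chains of JAK2 were mostly myeloid, with 5 of 9 highest in GN. Csf3r, the G-CSF receptor, was at 13.51 ± 0.10 in GN and 6.21 in T4. Csf2rb, the beta chain of GM-CSF, IL-3 and IL-5 receptors, was at 11.59 in GN, 11.08 in DC and 10.64 in peritoneal MF, and at 6.95 in NK. Csf2ra, the alpha chain of the GM-CSF receptor, was at 12.26 in GN, between 11.43 and 11.76 in both macrophage populations and DC, and at 8.54 in T4. The low Jak2 of macrophages thus stood beside high Csf2rb and Csf2ra. Il12rb2, which pairs with TYK2's chain Il12rb1, was at 11.87 ± 0.25 in NK and 10.41 ± 0.29 in DC, the population of highest Tyk2 and that of highest Jak2, and at 6.30 in GN. Il12rb1 was highest in NK, at 8.60 in T4 and at 7.51 or less elsewhere. Il13ra1, a chain of IL-4 and IL-13 receptors, was at 11.97 ± 0.32 in GN, where Tyk2 was lowest, and at 6.12 in NK, where Tyk2 was highest. Il10rb, a chain of the IL-10 receptor, ran from 10.09 in T4 to 11.54 in spleen MF. Ifnar1, TYK2's chain of the type I interferon receptor, hardly varied, from 9.76 to 10.07 (adjusted p = 0.0219), so the low Tyk2 of GN stood beside the highest Ifnar1. Of the STATs, Stat4, which IL-12 activates, was at 12.49 ± 0.12 in NK and 11.39 ± 0.20 in T4 and between 10.10 and 10.60 elsewhere. Stat5b was highest in GN (10.20) and T4 (10.05) and lowest in NK (9.08), and Stat5a was highest in DC (9.14) and T4 (9.13).

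**Figure D2:**
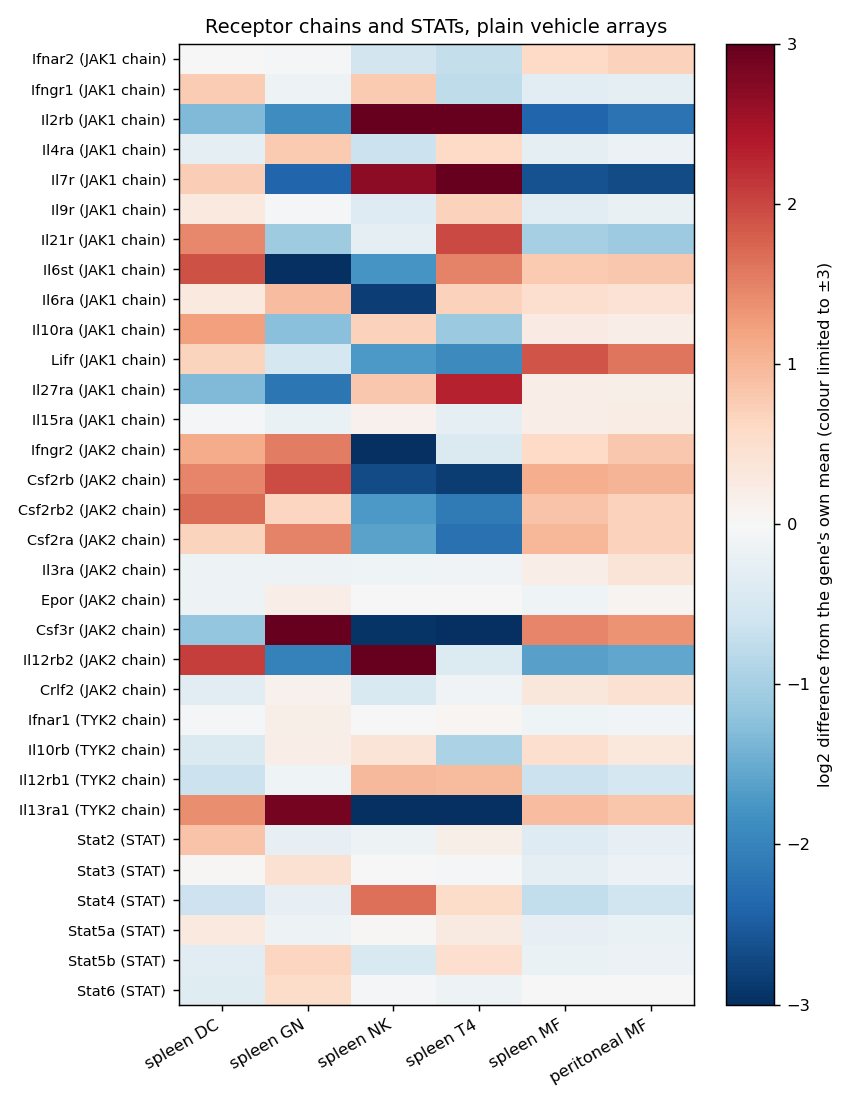
Receptor chains and STATs in plain vehicle arrays. Colour is the log2 difference of each population's mean from the gene's own mean over 6 populations, limited to ±3. Il2rb and Il7r are red in NK and T4, Csf3r and Il13ra1 in GN, and Ifnar1 is pale throughout.

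Against plain vehicle, no member passed the test in any of 56 comparisons of inhibitor with vehicle. These were 15 of pooled inhibitors and 41 of single compounds. Of 168 values (3 members each), 0 passed at an adjusted p of 0.05 in limma and 1 had an unadjusted p under 0.05. The median size was 0.11, 120 values were above 0 and 44 below, and the lowest adjusted p was 0.38. The comparisons share controls, so the signs are not independent.

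Few genes of any kind passed. Prolonged inhibitors called 0% of genes in DC, NK and T4, 0.0271% in GN and 0.00911% in spleen MF. The 4 h inhibitors called 0% in DC, 0.0451% in GN, 0.118% in NK, 0.0182% in spleen MF and 0.00889% in T4. In peritoneal MF the shares were 0.0648% early and 0% late and repeated, and both single-treatment comparisons of T4 called 0%. The 41 single compounds called 0.0636% of their tests. Most of those calls came from prolonged SB00526228 in T4, which rests on 1 array that stands apart. A count of 0 members is thus near the background.

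The intervals bound what could have been missed. For Jak1 the pooled prolonged difference was 0.09 in DC (95% interval -0.17 to 0.35), 0.11 in GN (-0.19 to 0.40), 0.00 in NK (-0.28 to 0.28), 0.05 in T4 (-0.15 to 0.25) and 0.08 in spleen MF (-0.10 to 0.25). None of these intervals reached beyond 0.40 in size. In spleen MF the 18 inhibitor arrays ran from 10.40 over 11.07 to 11.31, and the 8 vehicle arrays from 10.72 over 10.95 to 11.16, inside the inhibitor range. The lowest inhibitor array, SB00526222 of J8, stands apart. In peritoneal MF, Jak1 differed by 0.08 early (-0.03 to 0.19), -0.03 late (-0.19 to 0.12) and 0.11 repeated (-0.07 to 0.28). Without the arrays that stand apart Jak1 differed by 0.02 in DC, 0.09 in GN, -0.03 in NK, -0.02 in T4 and 0.08 in spleen MF, and by 0.02, -0.03 and 0.12 in the 3 peritoneal schedules.

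**Figure D3:**
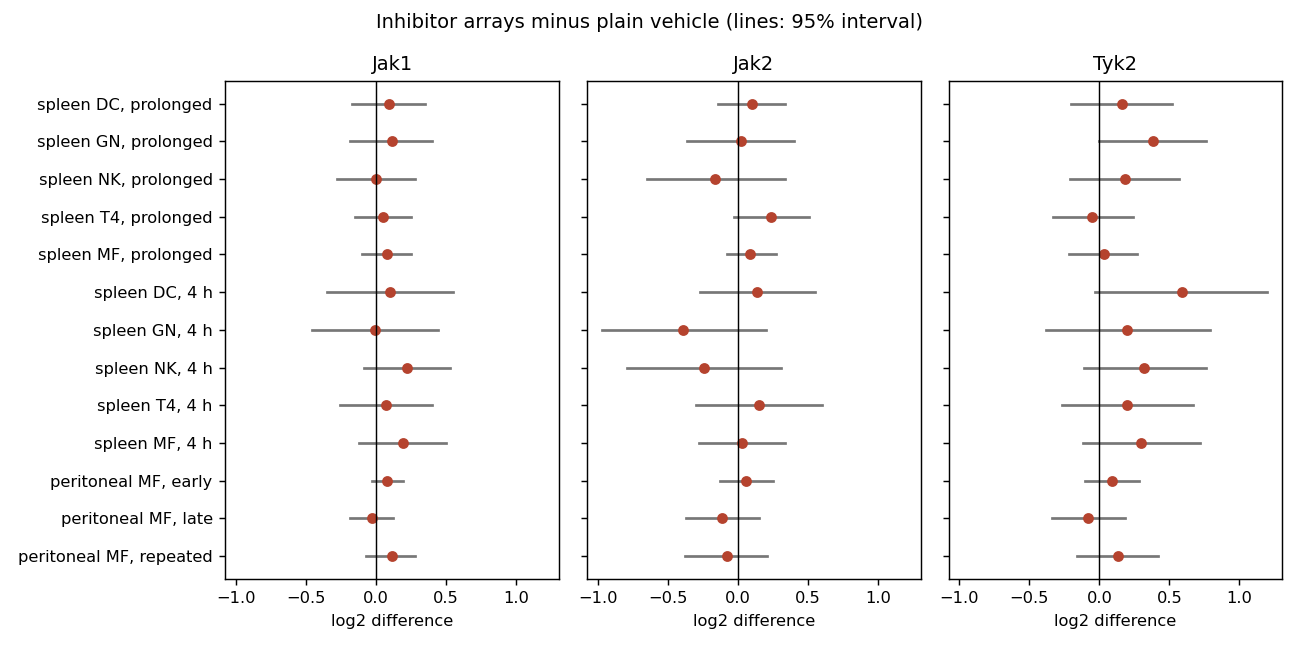
Pooled inhibitor arrays minus plain vehicle for Jak1, Jak2 and Tyk2, in log2, by population and schedule. Dots are the fitted differences and lines their 95% intervals. Every line crosses or touches 0, the widest being those of the 4 h schedule.

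The largest prolonged value of Jak2 was in T4. The 19 inhibitor arrays ran from 9.37 over 10.02 to 10.58, and the 7 vehicle arrays of that schedule were 9.95 (J2), 10.18 (J3), 10.24 (J6), 9.07 and 10.26 (J8), and 9.56 and 9.51 (J25). The groups overlapped nearly throughout. J25 arrays, treated or not, lay between 9.43 and 9.80, whereas J8 arrays spread over the whole range, from 9.07 to 10.58. The difference was 0.24 (-0.03 to 0.51, adjusted p = 0.974). Within experiments it was 0.48 in J8, 0.22 in J6, 0.18 in J3, 0.07 in J25 and 0.01 in J2. Both J8 vehicle arrays stand apart. The difference was 0.06 without the one at 9.07, 0.34 without the one at 10.26 (adjusted p = 0.247) and 0.08 without all arrays that stand apart. That last value has no J8 plain vehicle array behind it.

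SB00526226 gave the 1 value with an unadjusted p under 0.05, Jak2 in prolonged T4. Its 3 arrays, all of J8, were at 10.02, 10.58 and 10.29, and the J8 vehicle arrays at 9.07 and 10.26 with MC and at 10.07 and 9.50 with MC at pH 3. Of the 3, 2 lay above all 4 J8 vehicle arrays. The difference was 0.47 (0.01 to 0.93, adjusted p = 0.469) from plain vehicle and 0.48 (-0.02 to 0.98, adjusted p = 0.495) from pH 3 vehicle. It was 0.20 without the plain vehicle array at 9.07 and 0.63 without that at 10.26 (adjusted p = 0.109). The SB00526226 array at 10.02 stands apart as well, and the difference was 0.24 without all such arrays. No plain vehicle array of J8 is then left, though the SB00526226 arrays are all of J8. SB00526228 had a larger value, 0.70 (0.00 to 1.40), from 1 array of J2 at 10.42 against a J2 vehicle at 9.95. That array stands apart, and its granulocyte list was at 10.23 and its dendritic cell list at 8.94, where T4 vehicle arrays had at most 5.83 and 7.04. Jak2 is higher in DC than in T4, and the part of these other cells in the value was not tested.

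**Figure D4:**
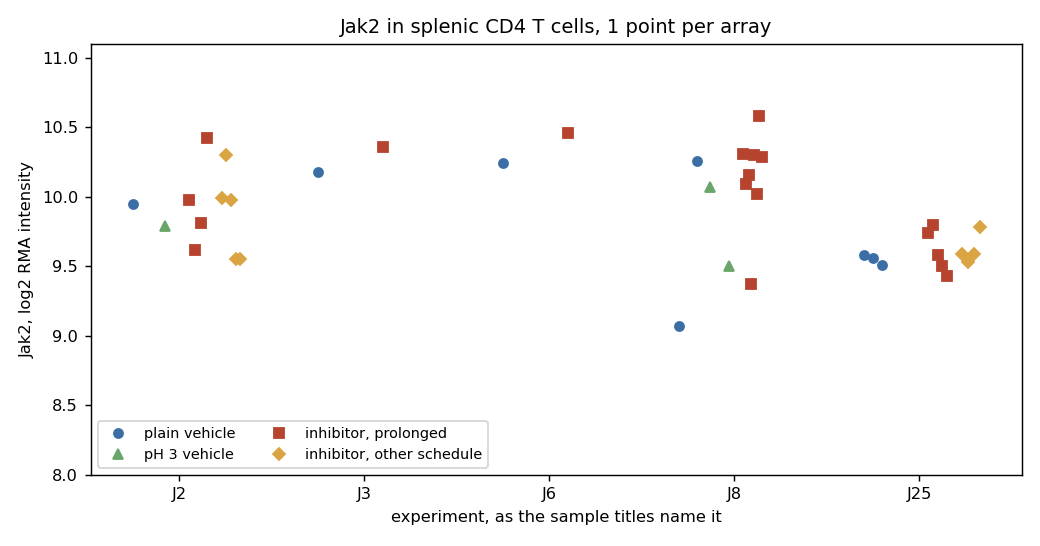
Jak2 in splenic CD4 T cells by experiment, 1 point per array, on a log2 intensity axis. Colours and shapes give plain vehicle, pH 3 vehicle, prolonged inhibitor and other schedules. J25 arrays sit between 9.43 and 9.80, and J8 arrays spread from 9.07 to 10.58.

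Elsewhere prolonged Jak2 differed by 0.10 in DC (-0.14 to 0.34), 0.02 in GN (-0.36 to 0.40), -0.16 in NK (-0.65 to 0.34) and 0.09 in spleen MF (-0.08 to 0.27). NK had only 3 vehicle arrays, at 9.99, 10.11 and 9.55. The 19 NK inhibitor arrays ran from 8.23 over 9.53 to 9.96. The lowest 3 inhibitor arrays (8.23, 8.43 and 9.23) were of J8, which has no NK vehicle, and all 3 stand apart. Leaving out 1 array at a time took the NK value from -0.39, without the vehicle array at 9.55, to -0.02, without that at 10.11. In peritoneal MF the values were 0.06 early (-0.13 to 0.25), -0.11 late (-0.37 to 0.15) and -0.08 repeated (-0.38 to 0.21). Jak2 without the arrays that stand apart differed by 0.07 in DC, 0.00 in GN, -0.27 in NK and 0.08 in spleen MF, and by 0.07, -0.11 and -0.08 in peritoneal MF.

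Tyk2 in GN after prolonged treatment was the pooled value with the lowest adjusted p. Its 6 inhibitor arrays ran from 8.15 over 8.46 to 8.59, and the 5 vehicle arrays were at 8.07 (J2), 7.94 (J3), and 8.60, 7.74 and 8.51 (J6). The inhibitor arrays thus lay within the vehicle range. The difference was 0.38 (0.00 to 0.76, adjusted p = 0.593), from 0.41 in J2 and 0.53 in J3 but -0.13 in J6. It was 0.34 (adjusted p = 0.345) without the J6 vehicle array that stands apart. In the other cell types prolonged Tyk2 differed by 0.16 in DC (-0.20 to 0.52), 0.18 in NK (-0.21 to 0.57), -0.05 in T4 (-0.33 to 0.24) and 0.03 in spleen MF (-0.22 to 0.27). Peritoneal MF had 0.09 early (-0.10 to 0.28), -0.08 late (-0.34 to 0.18) and 0.13 repeated (-0.16 to 0.42). Leaving out the arrays that stand apart gave 0.21 for NK, 0.01 for spleen MF, 0.00 for T4 and -0.01 for DC, and -0.02, -0.04 and 0.14 in peritoneal MF.

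At 4 h after 3 treatments the values of Tyk2 were above 0 in all 5 spleen cell types, and none passed alone. The 2 DC arrays were at 9.59 and 9.89, and the J2 plain vehicle arrays at 8.90 and 9.48. NK had 10.32, 10.19, 10.45, 10.02 and 10.32 against 9.69 and 10.08, and spleen MF had 8.48, 9.23, 9.24 and 9.26 against 8.42. In GN the values were 8.13, 8.30, 8.32 and 8.35 against 8.07, and in T4 9.37, 9.13, 9.14, 9.06 and 9.07 against 9.02. All 20 inhibitor arrays lay above the mean of the J2 plain vehicle arrays of their cell type, as did 16 of 20 for Jak1 and 7 of 20 for Jak2. For the probe set shared by Jak3 and Insl3 it was 18 of 20. How common such counts are over all genes was not tested. These arrays are not independent, since the 20 came from 6 animals and the 7 plain vehicle arrays from 2. Only 1 NK array (10.02) lay below a J2 plain vehicle array. The J2 arrays of pH 3 vehicle were higher than the plain ones, at 8.80 and 8.95 in spleen MF, 8.29 in GN and 9.12 in T4, and 4 of the inhibitor arrays (8.48, 8.13, 9.06 and 9.07) lay below them. Of the J2 plain vehicle arrays, that of spleen MF (8.42) and the lower of DC (8.90) stand apart. Vehicle arrays of other experiments reached 9.85 in DC, 10.65 in NK, 9.43 in spleen MF, 8.60 in GN and 9.82 in T4.

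**Figure D5:**
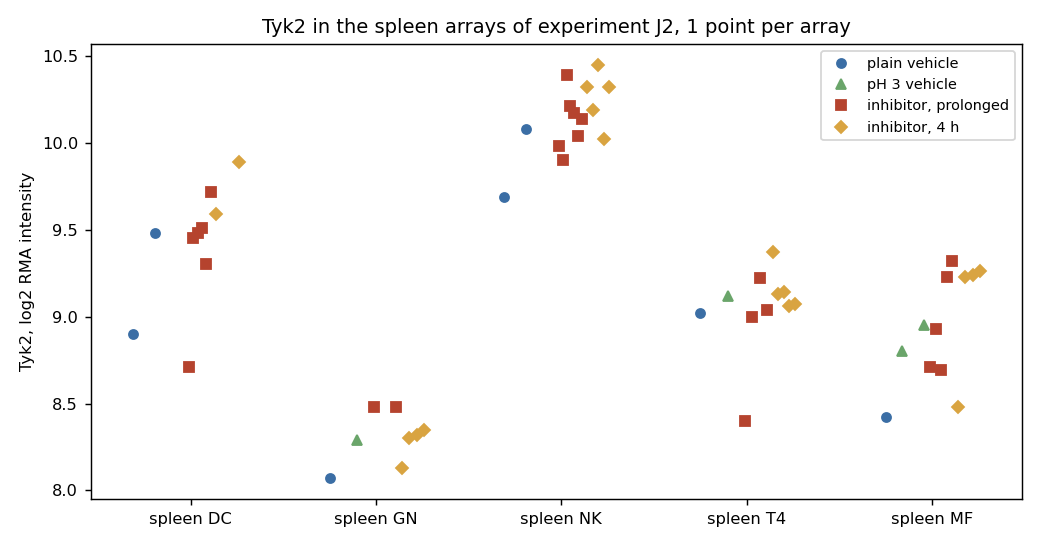
Tyk2 in the spleen arrays of J2, 1 point per array, on a log2 intensity axis. Colours and shapes give plain vehicle, pH 3 vehicle, prolonged inhibitor and 4 h inhibitor. In each cell type the 4 h arrays sit above the 1 or 2 plain vehicle arrays, apart from 1 NK array at 10.02, and the pH 3 vehicle arrays sit among the 4 h arrays.

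By cell type, the difference in Tyk2 at 4 h was 0.59 in DC (-0.03 to 1.20, adjusted p = 0.808), 0.32 in NK (-0.11 to 0.76), 0.30 in spleen MF (-0.12 to 0.72), 0.20 in T4 (-0.27 to 0.67) and 0.20 in GN (-0.38 to 0.79). It was 0.39 in DC, 0.34 in NK, 0.31 in spleen MF, 0.21 in T4 and 0.20 in GN when arrays that stand apart were left out. Without the experiment term it turned to -0.18 in spleen MF and -0.21 in T4. The mean over the 5 cell types, from 1 model of all 135 spleen arrays, was 0.32 ± 0.12 (SE, 95% interval 0.08 to 0.57, 1.25-fold) with an adjusted p of 0.175, where 0.925% of genes passed. The mean was computed after the values by cell type had been seen. It passed with array weights (0.27, adjusted p = 0.0221) and without arrays that stand apart (0.30, adjusted p = 0.0305). It did not pass under the other alternatives run for it (0.31 to 0.33, adjusted p from 0.0812 to 0.22). Nor did it when each J2 vehicle array was left out in turn (0.28 to 0.35, adjusted p from 0.138 to 0.363). All of these kept the experiment term, and the mean was not computed without it. The share of all genes that passed under each alternative is not given, so a gain in calls over all genes cannot be told apart from these calls. No member passed the test of a difference in the 4 h effect between cell types (F test, adjusted p = 0.999 for each, with 0.0752% of genes called). The mean at 4 h was 0.12 (-0.05 to 0.29) for Jak1 and -0.05 (-0.28 to 0.18) for Jak2. For the probe set shared by Jak3 and Insl3 it was 0.22 (0.01 to 0.42, adjusted p = 0.29 in the same limma model).

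The same model gave prolonged means of 0.07 (-0.05 to 0.18) for Jak1, 0.06 (-0.09 to 0.21) for Jak2 and 0.14 (-0.03 to 0.30, adjusted p = 0.597) for Tyk2, where 0.15% of genes passed. No member passed the test of a difference between cell types in the prolonged effect (F test, adjusted p = 1 for each, with 0.248% of genes called).

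Jak1 and Jak2 at 4 h showed no common direction. Jak1 differed by 0.10 in DC (-0.35 to 0.55), -0.01 in GN (-0.46 to 0.44), 0.22 in NK (-0.09 to 0.53), 0.07 in T4 (-0.26 to 0.40) and 0.19 in spleen MF (-0.12 to 0.50). Jak2 differed by -0.39 in GN (-0.97 to 0.20) and -0.24 in NK (-0.79 to 0.31), and by 0.14 in DC, 0.15 in T4 and 0.03 in spleen MF. In GN all 4 Jak2 arrays (10.16, 9.78, 9.97 and 9.90) lay below the 1 J2 plain vehicle array at 10.34, which was the highest of the 5 plain GN vehicle arrays. The J2 array of pH 3 vehicle was at 9.97, within their range. Without the arrays that stand apart, Jak1 differed by 0.00 in DC, -0.01 in GN, 0.20 in NK, -0.03 in T4 and 0.10 in spleen MF, and Jak2 by 0.07, -0.39, -0.30, -0.07 and -0.20 in the same order. In spleen MF no J2 plain vehicle array was then left.

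Set against prolonged inhibitors of the same compounds, 4 h inhibitors differed from -0.54 (Jak2 in GN, -1.30 to 0.22) to 0.33 (Tyk2 in DC, -0.33 to 0.98). No member passed in the 5 cell types, where 0.315% of tests did. Most of those calls were in NK, where 161 of 11008 genes passed. Among the members the lowest adjusted p was 0.529, for Jak1 in NK. There the 5 arrays at 4 h ran from 12.73 to 13.06 and the prolonged arrays of the same compounds from 12.08 to 12.77, and the difference was 0.24 (-0.03 to 0.50). Without the experiment term it was 0.41 with an adjusted p of 0.0199. All 4 h arrays are of J2, and the lowest prolonged arrays are of J8.

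After a single treatment T4 showed no difference that passed. SB00513404 at 3 h, 1 array against 1 vehicle array, gave 9.59 and 9.58 for Jak2 and 9.20 and 9.14 for Tyk2, and Jak1 was at 12.36 in the inhibitor array, 0.17 above the vehicle array. At 18 h, 3 inhibitor arrays differed from prolonged vehicle by 0.08 for Jak1 (-0.29 to 0.45), 0.16 for Jak2 (-0.34 to 0.66) and 0.13 for Tyk2 (-0.39 to 0.65). A lone array is assumed to vary like the others.

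Compounds were compared in 26 pairs of the same cell type and schedule, though doses cannot be said to match. No member passed, with p adjusted over the 26 pairs at 0.887 or more, and 0.00314% of all tests passed. Differences ran from -0.32 to 0.21 for Jak1, from -0.38 to 0.49 for Jak2 and from -0.34 to 0.32 for Tyk2. The 95% intervals reached from -0.86 to 0.62, from -1.27 to 1.01 and from -1.0 to 0.95, so the compounds are not shown to act alike. The pH 3 vehicle and SB00526226 were compared in spleen MF and T4 (4 comparisons, 0% of genes called). There pH 3 and plain vehicle differed by 0.20 or less for each member.

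Of the other pathway genes, 1 passed. Over the 13 pooled comparisons of spleen and peritoneal schedules, 0 JAK1, JAK2 or TYK2 chains and 0 STATs passed, and 1 brake did, where 0% to 0.118% of all genes passed per comparison. Socs2, a feedback inhibitor of cytokine receptors that STAT5 induces, was lower by 1.43 (SE 0.23, adjusted p = 0.0127) in NK at 4 h, where 0.118% of genes passed. The control was prolonged vehicle, so hour and number of treatments cannot be told apart from inhibitor. Socs2 is not given without the arrays that stand apart. In T4 at 4 h its difference was -0.42 (adjusted p = 1). The median difference of the 25 brakes in NK at 4 h was -0.03, and that of all genes tested was -0.01.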

How the data were processed

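The deposited table holds linear intensity for 24922 probe sets on 168 arrays. Affymetrix Power Tools and RMA are named as the authors' tools in the submitters' processing notes, and versions, like the set of arrays normalized jointly, are not given in the sources. Array medians from 119.5 to 142.3 show a linear scale, so log2 of the deposited values was computed without a pseudocount (lowest value 5.11). Of the probe sets, 21425 carried 1 gene symbol, and the brightest per gene was kept (19752 genes). The 1399 with several symbols were left out, apart from the 1 shared by Jak3 and Insl3.

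Genes above their array's median in at least 3 arrays of a fit were tested. Each population was fitted with limma 3.58.1 (R 4.3.3) with group and experiment as fixed effects. Vehicle arrays were compared between populations, and spleen cell types in 1 model, with the animal (experiment and title number) as a random block. Tests were two-sided, with Benjamini-Hochberg adjustment over all genes tested and a threshold of 0.05. The number of arrays limits the precision, and where labels do not tie arrays to separate animals, p-values measure the spread between arrays. No 2 arrays were identical (highest correlation 0.9969). The scripts were tested on simulated data.

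Alternatives were no filter on low values, quantile normalization, median centring, no experiment term or a random one, array weights, leaving out arrays that stand apart and leaving out each array in turn. The mean over spleen cell types kept the experiment term throughout. Chosen after seeing the data were the shared probe set, the mean over spleen cell types and leaving out J2 vehicle arrays from it. Members and gene lists were chosen with earlier results of these data known. Named genes were the 4 members, the 3 genes most correlated with each, and at most 3 genes per list and comparison, those with the largest statistic. Genes named beyond that are said to have been chosen after their values were seen. Promoter sequences are RefSeq's in GRCm38.p6.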

Additional observations from a re-analysis of the deposited data

Results flagged for a closer look

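Within groups of 4 to 10 arrays, 76 sets of values of the 3 members and the shared probe set were searched for an array far from the others, and 8 were found. Chance marks about 1 in 20 such sets. Of the 8, 3 are the same array, spleen MF after prolonged SB00526222 (J8), which stands apart over all genes: Jak1 was at 10.40, Tyk2 at 8.10 and the shared probe set at 7.59, each the lowest of its 7 arrays. The plain vehicle spleen MF array of J2, with Tyk2 at 8.42, also stands apart and was the lowest of 8. Jak2 was lowest at 9.23 in an NK array of prolonged SB00526226 (J8) that stands apart. Tyk2 was lowest at 9.0 in a peritoneal MF array of late SB00526222 (J25), which does not stand apart. In T4 the shared probe set was highest at 9.87 in an array of prolonged SB00513404 (J25), whose 3 other arrays were at 9.42 to 9.45, and lowest at 8.80 in an array of prolonged SB00526221 (J2). Neither of these T4 arrays stands apart.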

How the results depend on the processing

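The count of members that passed against vehicle stayed at 0 of 168 values under every alternative run, and in vehicle arrays NK stayed highest for Jak1 and Tyk2 and DC for Jak2. No value that passed in either setting turned its sign. For the values below the cause was not tested, and the share of all genes that passed in each setting is not given. Tyk2 for SB00526222 against SB00513404 in late peritoneal MF passed with array weights (1 call in place of 0), and Jak1 in NK at 4 h against prolonged passed without the experiment term (1 in place of 0). In vehicle arrays, calls gained were Jak1 DC below spleen MF (-0.20 with array weights, -0.28 with the experiment as a fixed effect), Jak2 GN over T4 (0.31 with quantile normalization) and Tyk2 DC over T4 (0.41 with array weights). Turned values that never passed follow, by setting. Without arrays that stand apart: Tyk2 early peritoneal MF -0.02, prolonged DC -0.01, vehicle peritoneal MF minus T4 0.01 and spleen MF minus T4 0.01, Jak2 at 4 h in spleen MF -0.20 and T4 -0.07, Jak2 in NK SB00526222 minus SB00526221 -0.06, Jak2 prolonged mean -0.01, and Jak1 in T4 prolonged -0.02 and 4 h -0.03. With quantile normalization: Jak1 late peritoneal MF 0.01, Jak2 prolonged GN -0.08, 4 h spleen MF -0.03 and 3 h T4 -0.04, and Tyk2 3 h T4 -0.01. Without the experiment term: Jak1 4 h GN 0.18, Jak2 in GN SB00526228 minus SB00526222 0.04, Jak2 18 h T4 -0.19, and Tyk2 prolonged spleen MF -0.08, 4 h spleen MF -0.18, 4 h T4 -0.21 and 18 h T4 -0.11. With the experiment as a random block: Jak1 4 h GN 0.15 and Tyk2 prolonged spleen MF -0.02. With array weights: Jak2 4 h spleen MF -0.10, prolonged mean -0.02 and vehicle GN minus NK -0.04, and Tyk2 prolonged T4 0.01 and vehicle peritoneal MF minus spleen MF -0.03, peritoneal MF minus T4 0.16 and spleen MF minus T4 0.18. With the experiment as a fixed effect in vehicle arrays: Jak1 peritoneal MF minus DC -0.02, Jak2 peritoneal minus spleen MF 0.46, GN minus T4 -0.04 and NK minus T4 -0.20, and Tyk2 peritoneal MF minus DC 0.06 and minus T4 0.07. Median centring took Tyk2 peritoneal minus spleen MF to -0.02. In J2, J3, J6 and J8 alone, Jak2 NK minus T4 was -0.05 and Tyk2 DC minus T4 -0.03.

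Leaving out 1 array at a time gave these ranges where a sign turned: in peritoneal MF, Tyk2 early -0.04 to 0.13, late -0.24 to 0.03 and repeated -0.03 to 0.24, and Jak1 late -0.10 to 0.01. In GN, Jak1 prolonged -0.07 to 0.18 and 4 h -0.04 to 0.19, Jak2 prolonged -0.19 to 0.18, 4 h -0.46 to 0.09 and 4 h SB00526222 -0.56 to 0.02, and Tyk2 4 h -0.01 to 0.25. Jak2 at 4 h ran from -0.04 to 0.33 in DC, -0.06 to 0.13 in spleen MF and -0.01 to 0.29 in T4, and its 4 h mean from -0.07 to 0.04. Tyk2 prolonged ran from -0.05 to 0.09 in spleen MF and -0.11 to 0.05 in T4. In vehicle arrays, Jak2 ran from -0.07 to 0.01 (peritoneal minus spleen MF), -0.07 to 0.15 (GN minus NK) and -0.01 to 0.23 (NK minus T4), and Tyk2 from -0.09 to 0.09 (peritoneal minus spleen MF). The Jak2 value of 0.09 in GN came without the 1 J2 vehicle array.

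No paired analysis was possible because the replicate numbers follow only deposition order. The animal in the titles was instead a random block where an animal gave several arrays. The mean of all probe sets of a gene could not be tried, since each member has 1. The 4 h schedule rests on 1 or 2 vehicle arrays per cell type, and NK on 3 in all. J8 has no NK vehicle.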

Other observations

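The brakes that limit the kinases also had their own order over vehicle populations. Of the 25, the 3 with the lowest adjusted p were Cblb, Socs2 and Ptprc. Cblb, a ubiquitin ligase that restrains activation of T and NK cells, was at 11.62 ± 0.28 (SD, n = 3) in NK and 11.17 ± 0.27 (n = 8) in T4, the 2 highest populations of Jak1, and at 6.98 ± 0.28 (n = 5) in GN. Socs2 was highest in DC (9.90 ± 0.47, n = 6), the population of highest Jak2, and at 5.92 ± 0.20 (n = 9) in peritoneal MF, where Jak2 was lowest. Ptprc, the gene of the phosphatase CD45, was at 12.83 ± 0.21 in NK and 10.62 ± 0.09 in peritoneal MF, which are also the highest and a low population of Jak1. The rest of its order was unlike Jak1, with 12.62 in GN, 12.52 in DC, where Jak1 was lowest, and 12.08 in T4. The next were chosen after their values were seen. Socs1, the feedback inhibitor that binds the kinases directly, was highest in T4 (8.83 ± 0.46) and lowest in peritoneal MF (7.35 ± 0.20). Socs3, which limits signals of IL-6 and G-CSF receptors, was highest in GN (9.93 ± 0.71) and lowest in DC (7.54 ± 0.23). Each of these 5 genes passed the F test over populations, as did 94.2% of all genes, and Socs5 and Pias1 were the 2 of 25 that did not (adjusted p = 0.145 and 0.326, limma with Benjamini-Hochberg).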
